A study of Mus musculus with 41 samples.

Results

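The genes described here are the core of Trem2 receptor signalling in microglia: *Trem2*, *Tyrobp*, *Syk*, *Plcg2* and *Inpp5d*. They were taken by symbol, as 5 of the 24015 genes in the deposited table, and are followed over all 10 groups of 41 libraries. All 5 had more than 10 normalized counts in every library, so each passed the filter on low values in every comparison. The libraries are bulk RNA from microglia of the cerebellum, sorted as cells positive for CD11b and Tmem119. Wild-type BALB/c mice (WT) were compared at 1, 3, 6 and 9 weeks of age, 4 mice at each age, with mice of strain BALB/cNctr-Npc1m1N/J, labelled NPC, at the same ages (4 mice at 1, 3 and 6 weeks and 3 mice at 9 weeks). NPC mice carry a mutation of *Npc1*, the lysosomal cholesterol transporter that is defective in Niemann-Pick disease type C. These groups were untreated. At 9 weeks, 5 further NPC mice received PLX5622, an inhibitor of the Csf1 receptor on which microglia depend for survival, and 5 further NPC mice were labelled control, without a statement of what they received. The mutation is carried by all cells of the mouse, so no group separates loss of *Npc1* in microglia from its loss elsewhere, and the cells of PLX5622-treated mice are those present after treatment.

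Trem2 is a surface receptor of microglia that binds lipids, lipoproteins and apoptotic cells. Its own cytoplasmic tail is short, and it signals through its partner Tyrobp (DAP12), a small adaptor whose phosphorylated ITAM motif recruits the tyrosine kinase Syk. Syk then activates, among others, phospholipase C gamma 2 (Plcg2), which releases calcium and diacylglycerol, while the inositol phosphatase Inpp5d (SHIP1) removes the lipid made by PI3 kinase and can bind the adaptor's motif itself. In brain disease the pathway is best known for its part in the shift of microglia from a homeostatic to a disease-associated state.

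The promoter of *Trem2* is shown because the gene is the receptor itself, and those of *Inpp5d* and *Plcg2* because these were the pair of the 5 genes with the most alike group profiles (below). Each is the RefSeq sequence of the 250 bases before the annotated start, on the plus strand of GRCm38.p6, at chr17:48346151-48346400 for *Trem2*, chr1:87620062-87620311 for *Inpp5d* and chr8:117498025-117498274 for *Plcg2*. Capitals mark matches to AGGAAGT, the core bound by Ets factors such as PU.1, or to CACGTG, the E-box bound by the Tfeb and Mitf family, on either strand. These motifs do not overlap each other here.
Trem2 promoter: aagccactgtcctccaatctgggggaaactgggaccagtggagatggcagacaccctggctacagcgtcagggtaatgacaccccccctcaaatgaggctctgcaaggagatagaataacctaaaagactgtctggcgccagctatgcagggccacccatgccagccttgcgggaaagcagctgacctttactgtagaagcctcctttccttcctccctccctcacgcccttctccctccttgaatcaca
Inpp5d promoter: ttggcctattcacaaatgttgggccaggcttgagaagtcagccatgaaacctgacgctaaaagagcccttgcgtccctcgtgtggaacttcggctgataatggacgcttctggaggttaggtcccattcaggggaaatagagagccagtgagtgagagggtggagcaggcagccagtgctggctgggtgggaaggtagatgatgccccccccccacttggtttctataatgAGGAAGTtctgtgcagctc
Plcg2 promoter: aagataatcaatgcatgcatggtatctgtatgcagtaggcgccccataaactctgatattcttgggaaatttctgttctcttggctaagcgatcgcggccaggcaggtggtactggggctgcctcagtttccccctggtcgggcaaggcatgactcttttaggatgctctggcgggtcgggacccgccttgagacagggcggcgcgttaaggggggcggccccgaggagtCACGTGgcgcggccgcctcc
The *Inpp5d* window held 1 AGGAAGT, starting 19 bases before the start site, and the *Plcg2* window 1 CACGTG, starting 20 bases before it. The *Trem2* window held neither, nor did the RefSeq windows of *Syk*. Among 32536 promoter windows of the same length, 7.70% held AGGAAGT and 6.04% held CACGTG. A match describes the letters only.

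Depth ran from 23159093 to 40509603 reads per library (median 30481422). *Npc1* RNA, the check of the genotype labels, was lower in every NPC library than in every WT library of its age, with log2 differences of -2.87 at 1 week, -3.62 at 3 weeks, -3.59 at 6 weeks and -3.24 at 9 weeks. Markers of the sorted cells were present throughout: *Tmem119*, part of the sort, ranged from 52430 to 318571 normalized counts and *Itgam*, which encodes CD11b, from 18335 to 68549. Over the 31 untreated libraries, summed markers were 165 to 1167.5 normalized counts for monocytes and neutrophils and 7168 to 36762 for border-associated macrophages. *Tmem119* and *Itgam* were lower in NPC than in WT at 9 weeks (log2 differences -1.11 and -0.77, limma adjusted p = 2e-05 and 0.0151). Libraries also differed in how transcripts of different length were represented. This is given here as the tilt: the median log2 deviation of 1250 short genes (at most 1500 bases) minus that of 1998 long genes (at least 5000 bases). It was 0.15 to 0.80 in WT at 1 week and -0.81 to -0.17 in WT at 3 weeks, so it moved with age. NPC replicate C at 3 weeks stood apart from every other library, with a tilt of 1.93 against -0.34 to 0.09 in the other 3 libraries of its group. *Tyrobp* (597 bases) and *Trem2* (1088 bases) are short by this limit and *Syk* (5363) is long. *Inpp5d* (4937) and *Plcg2* (4298) are longer than the first pair but below the limit for long genes. Many results below are therefore given also without that library or with the tilt as a covariate. Because RNA came from pools of sorted cells, fewer expressing cells and less RNA per cell cannot be told apart.

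Over all 41 libraries, *Trem2* averaged 47875 normalized counts, *Tyrobp* 33247, *Inpp5d* 32718, *Plcg2* 10996 and *Syk* 5849. By this mean they ranked 46, 79, 80, 342 and 794 in the table. Between genes, levels compare only per length. At 9 weeks in WT mice, *Trem2* stood at 43466 ± 3146 normalized counts per kilobase of transcript (SD, n = 4), above *Tyrobp* at 32396 ± 5590, *Inpp5d* at 7425 ± 803, *Plcg2* at 2618 ± 273 and *Syk* at 1223 ± 58.9. In untreated NPC mice of that age the order of the first pair was the other way round, with *Tyrobp* at 65844 ± 9077 and *Trem2* at 45524 ± 1813 normalized counts per kilobase (n = 3). The mean tilt was also higher in these NPC mice (-0.027) than in WT (-0.303). Its part in this order was not tested.

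**Figure D1:**
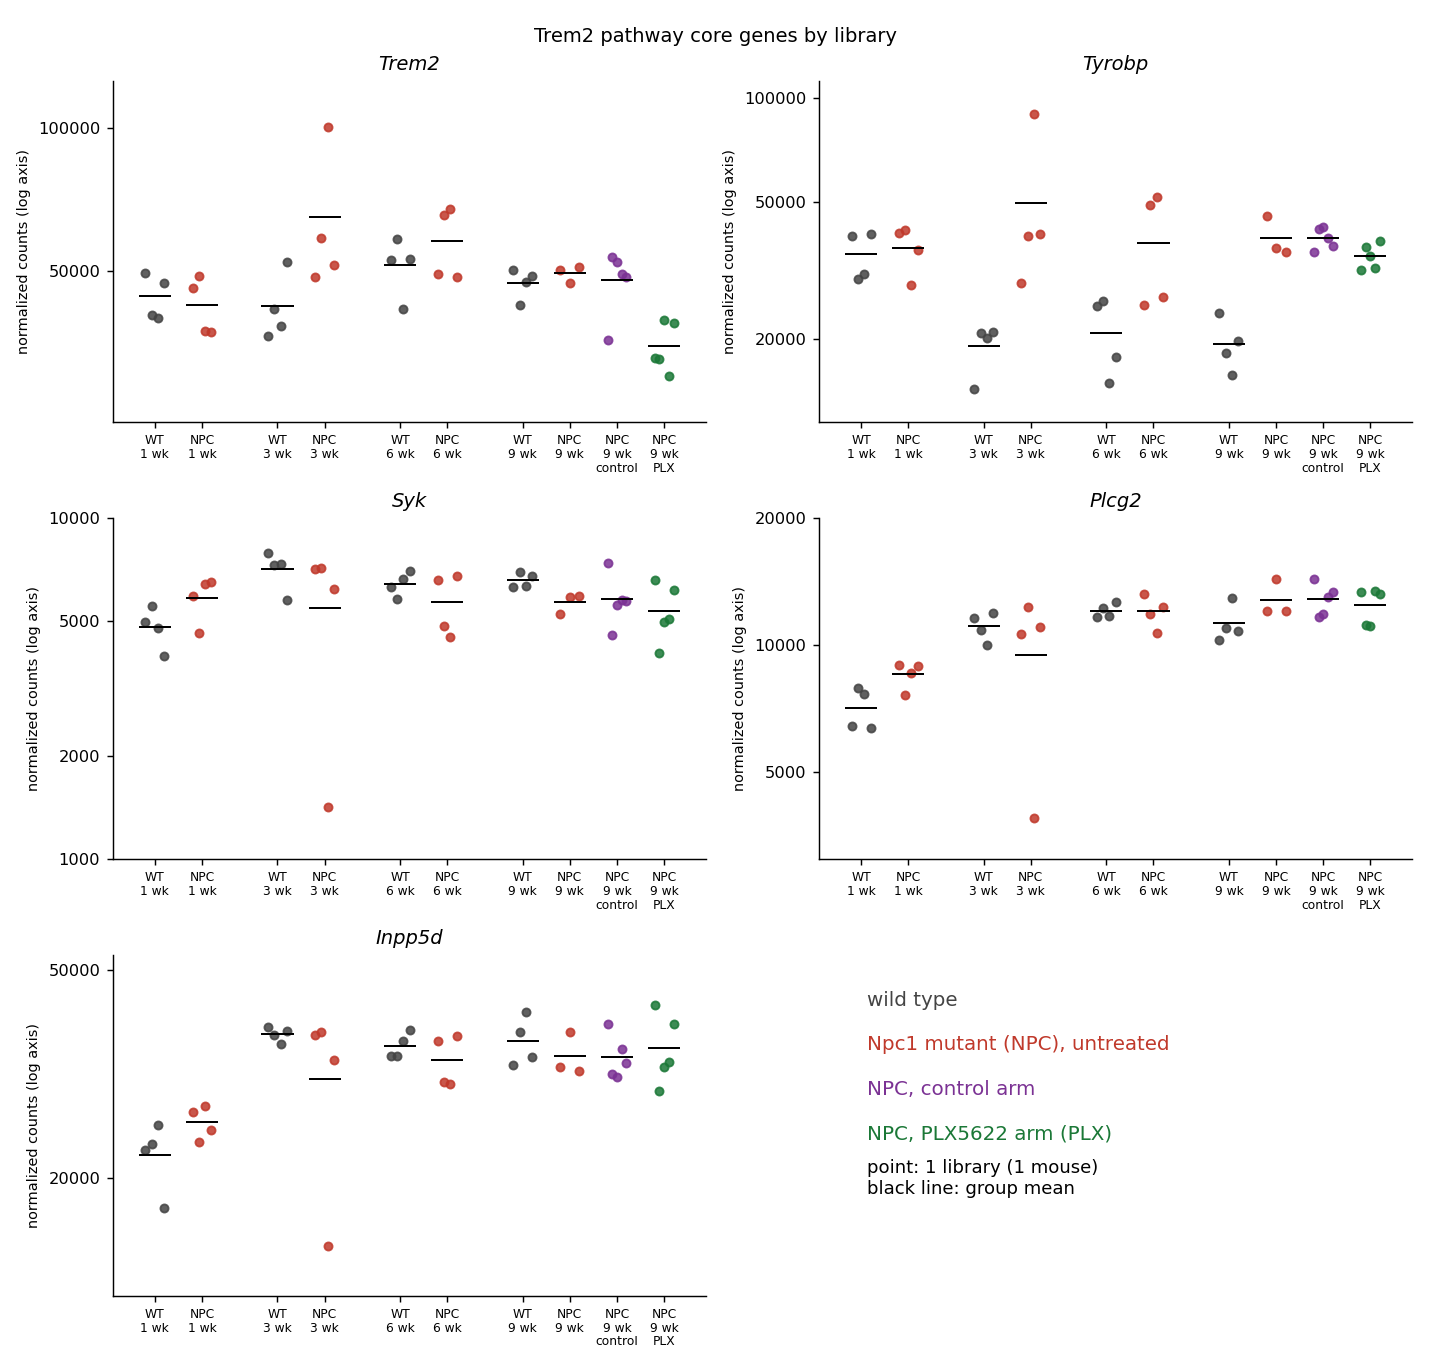
Normalized counts (log axis) of the 5 genes in each of the 41 libraries by group, 1 point per library, with a line at the group mean. The group means of *Tyrobp* are higher in NPC than in WT from 3 weeks on, *Trem2* is lowest in the PLX5622 group, and NPC replicate C at 3 weeks is highest for *Trem2* and *Tyrobp* and lowest for the other 3 genes.

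Between genotypes, the adaptor *Tyrobp* was the member that rose in NPC microglia at 3, 6 and 9 weeks, by 1.77 to 2.40-fold. The receptor *Trem2* rose 1.49-fold at 3 weeks, and its call there was lost without either of 2 single libraries. The kinase *Syk*, the phospholipase *Plcg2* and the phosphatase *Inpp5d* passed the test between genotypes at none of the 4 ages. A gene is called where limma's moderated test on log2(normalized count + 1), fitted over all genes, gave a Benjamini-Hochberg adjusted p below 0.05. At 1 week none of the 5 genes was called (0 at an unadjusted p below 0.05, 0 with edgeR and 0 with DESeq2), beside 1.45% of all genes tested. At 3 weeks 2 of 5 were called, beside 26.9% of all genes. At 6 weeks 1 of 5 was called, beside 15.3%, and at 9 weeks 1 of 5, beside 19.0%. With 5 genes, 1 or 2 calls lie near these background shares, and nothing about the set is read from the counts.

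*Tyrobp* RNA at 3 weeks was 14314, 20861, 20100 and 20948 normalized counts in the WT libraries and 29009, 39816, 89496 and 40376 in the NPC libraries. All 4 NPC libraries were above all 4 WT libraries, and replicate C (89496) was far above the rest of its group. The log2 difference was 1.26 ± 0.26 (SE; 2.40-fold, 95% interval 1.66 to 3.47, limma adjusted p = 0.000902). Without NPC replicate C it was 0.93 (adjusted p = 0.00497), and with the tilt as a covariate 0.52 (adjusted p = 0.00142).

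At 6 weeks *Tyrobp* was at 24983, 25817, 14862 and 17719 normalized counts in WT and at 25152, 48942, 51421 and 26411 in NPC. NPC replicates B and C were about as high as each other and well above every WT library, whereas A and D lay beside the higher WT libraries, so the groups overlapped. The log2 difference was 0.82 ± 0.26 (1.77-fold, 1.22 to 2.56, limma adjusted p = 0.029). This call rested on single libraries: it was lost without WT replicate C (adjusted p = 0.111) or D (0.0811) and without NPC replicate B (0.125) or C (0.134). Without both B and C, the log2 difference was 0.34 (adjusted p = 0.616). Replicates B and C also had the highest tilt of their group (0.37 and 0.42, against -0.42 and -0.41 in A and D) and the most RNA of the astrocyte gene *Gfap* (2562 and 2053 normalized counts, against 572 and 193). With the tilt as a covariate the log2 difference of *Tyrobp* was 0.59 (adjusted p = 2.76e-05).

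At 9 weeks the genotypes were separate for *Tyrobp*, with 23703, 18240, 15729 and 19692 normalized counts in WT and 45543, 36665 and 35720 in NPC. All 3 NPC libraries lay well above the highest WT library. The log2 difference was 1.03 ± 0.28 (2.04-fold, 1.37 to 3.04, limma adjusted p = 0.00928), and the call was lost only without NPC replicate A (0.92, adjusted p = 0.0624). With the tilt as a covariate it was 0.81 (adjusted p = 4.53e-07). The NPC mice labelled control gave 35696, 41743, 42223, 39354 and 37176 normalized counts, all above the 4 WT libraries, and a log2 difference from WT of 1.03 ± 0.22 (adjusted p = 0.000483). These mice did not share libraries with the untreated NPC group, but both comparisons share the WT libraries. In the comparison of control NPC mice with WT, 22.0% of all genes were called and *Tyrobp* was the only 1 of the 5; with the tilt as a covariate *Plcg2* was called as well (0.31, adjusted p = 0.0291).

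*Trem2* RNA at 3 weeks was 36441, 41555, 38358 and 52248 normalized counts in WT and 48692, 58746, 100429 and 51611 in NPC. WT replicate D reached into the NPC range, and NPC replicate C was again the highest library. The log2 difference was 0.57 ± 0.17 (1.49-fold, 1.17 to 1.89, limma adjusted p = 0.0146). The call was lost without NPC replicate C (0.34, adjusted p = 0.0938), without WT replicate A (adjusted p = 0.0549), and with the tilt as a covariate (0.11, adjusted p = 0.465). At the other ages *Trem2* did not pass the test. Its log2 difference was -0.07 (95% interval -0.41 to 0.28) at 1 week, 0.16 (-0.18 to 0.51) at 6 weeks and 0.07 (-0.30 to 0.44) at 9 weeks, where WT libraries lay at 42462 to 50321 normalized counts and NPC libraries at 47305 to 51065.

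**Figure D2:**
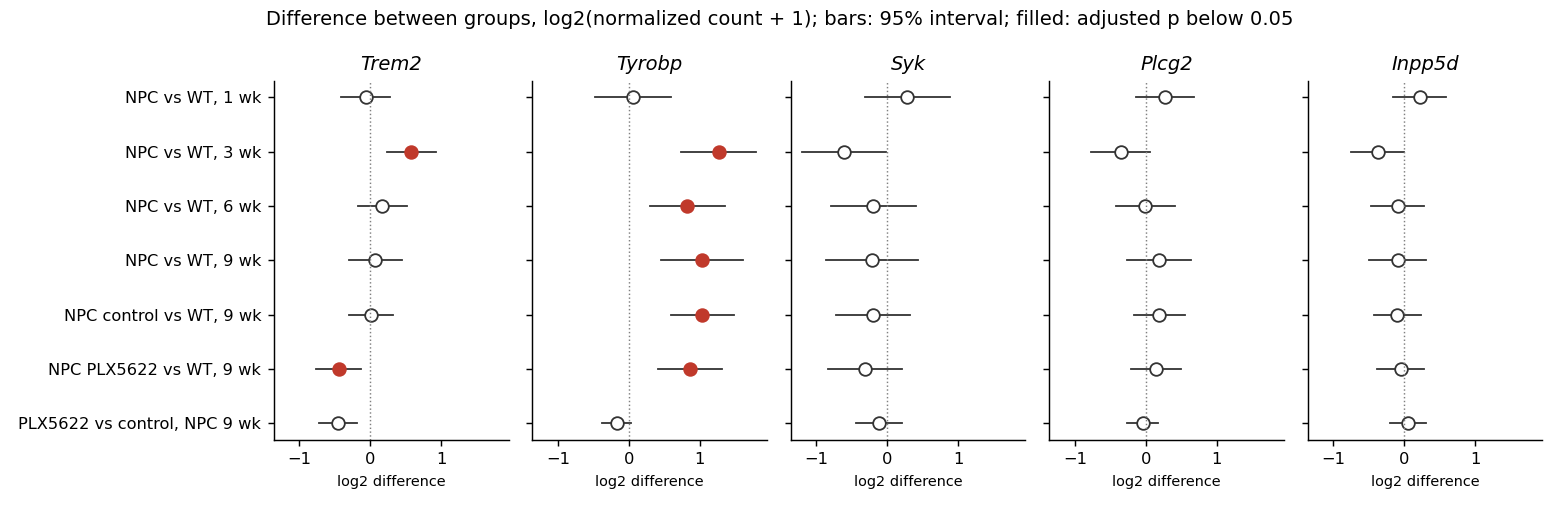
Log2 difference between groups for each of the 5 genes (x axis) in 7 comparisons (rows), with 95% intervals; filled points have an adjusted p below 0.05. The *Tyrobp* points lie between 0.82 and 1.26 in NPC against WT from 3 weeks on, and the *Trem2* points for PLX5622 lie at -0.45 against WT and -0.46 against control.

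Relative to its receptor, the adaptor thus differed between genotypes from 3 weeks on. The ratio of *Tyrobp* to *Trem2* normalized counts at 1 week was 0.74 to 0.86 in WT and 0.77 to 0.97 in NPC libraries. In WT it was 0.39 to 0.52 at 3 weeks, 0.33 to 0.47 at 6 weeks and 0.33 to 0.47 at 9 weeks. In NPC it was 0.60 to 0.89 at 3 weeks, 0.51 to 0.76 at 6 weeks and 0.70 to 0.91 at 9 weeks. Every NPC library was above every WT library of the same age at 3, 6 and 9 weeks, including NPC replicates A and D at 6 weeks and the 3 NPC libraries other than replicate C at 3 weeks (0.60 to 0.78). This ratio is a description of each library and was not tested. *Tyrobp* is the shorter of the pair, and the tilt moved in the same direction as the ratio between WT at 1 week (0.15 to 0.80) and at 3 weeks (-0.81 to -0.17). Between genotypes it did so too, with a mean tilt of 0.423 in NPC and -0.517 in WT at 3 weeks, -0.008 and -0.307 at 6 weeks, and -0.027 and -0.303 at 9 weeks, with overlapping libraries at each age. The part of the tilt in the ratio was not tested.

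**Figure D3:**
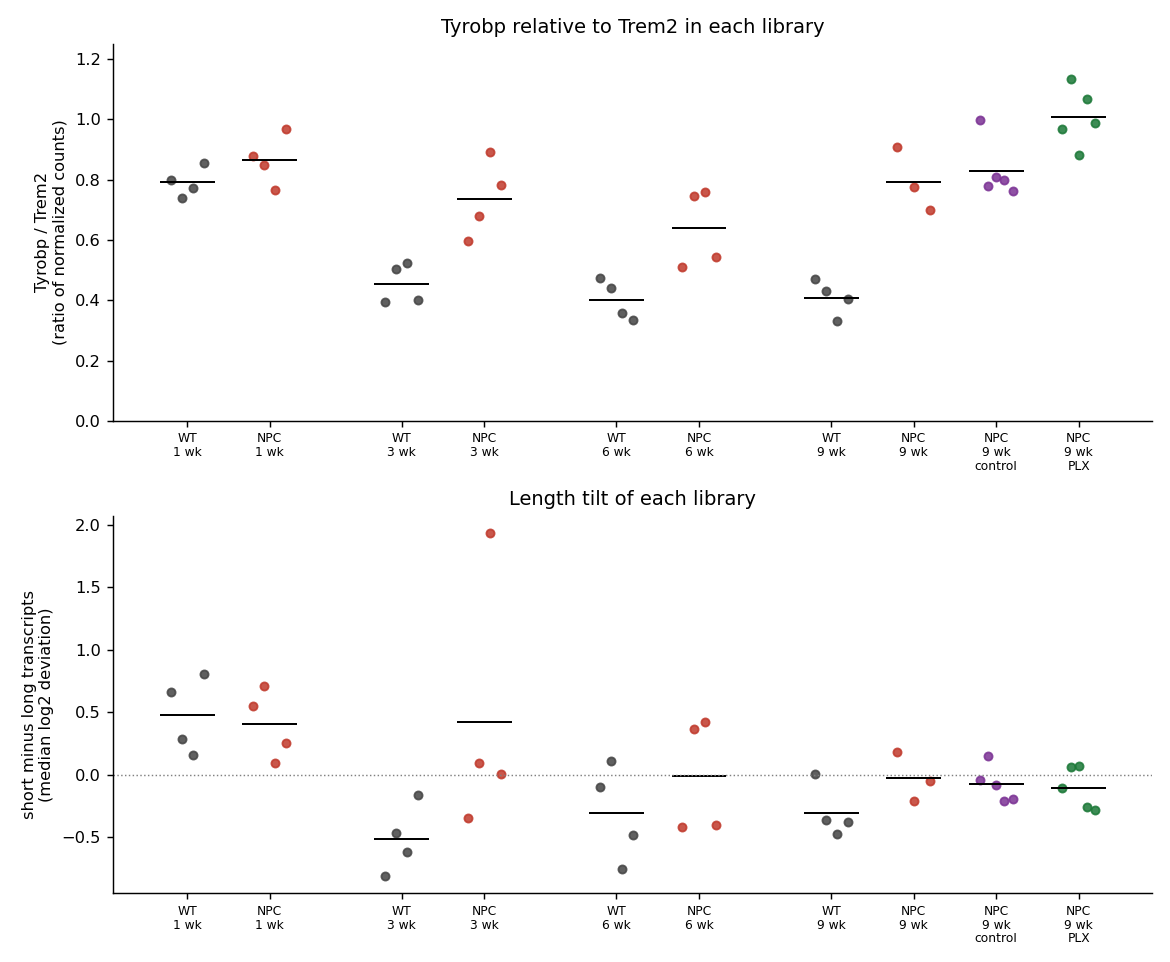
Upper panel: ratio of *Tyrobp* to *Trem2* normalized counts in each library by group. Lower panel: length tilt of the same library, the median log2 deviation of short minus long transcripts; black lines are group means. The ratio is at most 0.52 in WT libraries from 3 weeks on and at least 0.51 in NPC libraries, with no overlap at any of these ages, and the mean tilt is also higher in NPC than in WT at each of them.

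*Syk*, the kinase recruited by the adaptor, was at 6291, 6920, 6301 and 6733 normalized counts in WT at 9 weeks and at 5214, 5850 and 5910 in NPC. Although all 3 NPC libraries lay below the 4 WT libraries, the difference did not pass the test (log2 -0.21, 95% interval -0.86 to 0.43, limma adjusted p = 0.699). Without NPC replicate C at 3 weeks, which enters the spread shared by all groups, the adjusted p at 9 weeks was 0.27. In NPC replicates A to D at 3 weeks *Syk* was 7068, 7151, 1421 and 6184 normalized counts, against 5764 to 7888 in WT. Replicate C was far below the other 7 libraries of that age. At 3 weeks the log2 difference was -0.61 (adjusted p = 0.113) and -0.05 without replicate C (adjusted p = 0.857). With the tilt as a covariate it turned, to 0.19 (adjusted p = 0.491), and at 9 weeks to 0.02 (adjusted p = 0.934). At 3 weeks *Syk* passed the test, as a fall, without NPC replicate A (-0.82, adjusted p = 0.034) or B (-0.83, adjusted p = 0.0445). Both of these fits kept replicate C.

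*Plcg2*, which turns the signal into calcium release, was at 10259 to 12946 normalized counts in WT and at 12028 to 14349 in NPC at 9 weeks, so the groups overlapped (log2 difference 0.19, 95% interval -0.26 to 0.64). *Inpp5d*, which opposes PI3 kinase, was at 32922 to 41628 normalized counts in WT and 32032 to 38101 in NPC (log2 difference -0.10, -0.50 to 0.31). For both genes the intervals at 1, 6 and 9 weeks reach up to 1.61-fold. At 3 weeks *Plcg2* gave -0.35, which turned to 0.03 without NPC replicate C and to 0.14 with the tilt as a covariate (adjusted p = 0.62). The log2 difference of *Inpp5d* at that age was -0.38 (adjusted p = 0.12), -0.05 without NPC replicate C and 0.10 with the tilt as a covariate (adjusted p = 0.662). It passed the test, as a fall, at -0.50 (adjusted p = 0.0399) without NPC replicate A and -0.51 (adjusted p = 0.049) without NPC replicate B. Both of these fits kept replicate C.

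In normal development between 1 and 3 weeks, the receptor's partners moved in different directions in WT microglia. *Inpp5d* rose 1.72-fold and *Plcg2* 1.57-fold, *Tyrobp* fell to 0.54 of its level, and *Trem2* and *Syk* did not pass the test. These 3 of 5 calls stand beside 34.1% of all genes called. *Inpp5d* went from 22640, 23211, 25224 and 17518 normalized counts at 1 week to 39001, 37500, 36099 and 38172 at 3 weeks. The ages did not overlap (log2 difference 0.78 ± 0.18, limma adjusted p = 0.00135), and with the tilt as a covariate it was 0.28 (adjusted p = 0.0438). *Plcg2* went from 6445, 7915, 7672 and 6346 normalized counts to 11585, 10844, 10022 and 11882. The ages again did not overlap (0.65 ± 0.20, adjusted p = 0.0138), but the call was lost with the tilt as a covariate (0.13, adjusted p = 0.515), with the same total in every library (0.54, adjusted p = 0.072) and with quantile normalization (0.53, adjusted p = 0.0589).

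*Tyrobp* in WT went the other way, from 39684, 29869, 30767 and 40337 normalized counts at 1 week to the 14314 to 20948 given above at 3 weeks. The log2 difference was -0.89 ± 0.26 (adjusted p = 0.00887) without overlap, and -0.10 (adjusted p = 0.511) with the tilt as a covariate. *Trem2* was at 49617, 40483, 39877 and 47115 normalized counts at 1 week, within the range at 3 weeks, and its log2 difference was -0.08 (95% interval -0.42 to 0.27). With the tilt as a covariate it was 0.41 (adjusted p = 0.000242), in the opposite direction, and with quantile normalization -0.27 (adjusted p = 0.0374). *Syk* was at 3928 to 5511 normalized counts at 1 week and 5764 to 7888 at 3 weeks, without overlap (0.56, adjusted p = 0.142), and was called without NPC replicate C at 3 weeks (adjusted p = 0.000728), with array weights (0.000483) and with only the groups compared (0.00182). It turned to -0.29 (adjusted p = 0.135) with the tilt as a covariate. Tilt and age differ together in these groups and cannot be told apart.

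In NPC microglia over the same interval, *Trem2* was the 1 gene of 5 called, beside 25.0% of all genes. It went from 46035, 48823, 37417 and 37325 normalized counts at 1 week to the 48692 to 100429 of 3 weeks, with a slight overlap (0.56 ± 0.17, limma adjusted p = 0.0145). That call was lost without NPC replicate C at 3 weeks (0.33, adjusted p = 0.074), or without replicate C (0.0512) or D (0.0525) at 1 week. With the tilt as a covariate the log2 difference was 0.55 (adjusted p = 2.96e-07). *Plcg2* was at 7614 to 8985 and *Inpp5d* at 23384 to 27511 normalized counts at 1 week in NPC. They were called without NPC replicate C at 3 weeks (log2 differences 0.41 and 0.51, adjusted p = 0.00318 and 0.000805) and with array weights (0.36 and 0.44, adjusted p = 0.00451 and 0.000799). *Tyrobp* was at 28671 to 41388 normalized counts at 1 week, and its log2 difference was 0.32 (-0.22 to 0.85), which was called with the tilt as a covariate (0.30, adjusted p = 0.0127) and was -0.01 without NPC replicate C at 3 weeks. *Syk* gave -0.33, was called with the tilt as a covariate (-0.32, adjusted p = 0.0476), and gave 0.23 without that library.

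The change in the genotype difference between 1 and 3 weeks was tested directly as an interaction, in which 1.06% of all genes were called and none of the 5 (5 at an unadjusted p below 0.05, 0 with edgeR and 1 with DESeq2). Values were positive for *Tyrobp* (1.20, limma adjusted p = 0.113) and *Trem2* (0.64, adjusted p = 0.188). They were negative for *Syk* (-0.89, adjusted p = 0.257), *Plcg2* (-0.62, adjusted p = 0.257) and *Inpp5d* (-0.59, adjusted p = 0.239). Without NPC replicate C at 3 weeks, all 5 were smaller in size, at 0.87, 0.41, -0.33, -0.24 and -0.27. In the same order they were 0.40, 0.14, -0.03, -0.09 and -0.09 with the tilt as a covariate. *Tyrobp* passed the test in DESeq2 (adjusted p = 0.0243), with array weights (adjusted p = 0.0387) and without NPC replicate A at 3 weeks (adjusted p = 0.031). Between 3 and 9 weeks the interaction called 0.456% of all genes and none of the 5 (0 at an unadjusted p below 0.05, 0 with edgeR and 0 with DESeq2).

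After 3 weeks no step in age called any of the 5 genes in either genotype. None of the 5 was called in WT between 3 and 6 weeks (0.0570% of all genes called) or 6 and 9 weeks (0.00712%), or in NPC between 6 and 9 weeks (0.370%), and none at an unadjusted p below 0.05, with edgeR or with DESeq2. In NPC between 3 and 6 weeks (0.228%) none was called either, with 1 gene, *Plcg2*, at an unadjusted p below 0.05 and 0 with edgeR and DESeq2. Group means of *Inpp5d* from 3 weeks on lay between 30999 and 37693 normalized counts over both genotypes and treatments, and those of *Plcg2* between 9477 and 12833, against 22148 and 7095 in WT at 1 week.

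In the order of the 10 group means, *Tyrobp* was highest in NPC at 3 weeks (49674 ± 27059 normalized counts, SD, n = 4), with the other NPC groups and WT at 1 week next. A gap without overlap separated the lowest of these, PLX5622 (34812 ± 2938, n = 5), from WT at 6 weeks (20845 ± 5398, n = 4), followed by WT at 9 weeks (19341 ± 3337) and 3 weeks (19056 ± 3184). That was the only break of its kind: for *Trem2*, *Syk*, *Plcg2* and *Inpp5d*, each group overlapped the next in the order of means. The break lies between these neighbours only. For *Tyrobp*, NPC at 6 weeks, higher in the order, reached down to 25152, below the highest WT library at 6 weeks (25817). *Trem2* was lowest in the PLX5622 group (34774 ± 4171) and highest in NPC at 3 weeks (64870 ± 24080). The means of both *Tyrobp* and *Trem2* in NPC at 3 weeks were raised by replicate C (89496 and 100429 normalized counts). By median, *Tyrobp* there was 40096, beside 39354 in control NPC mice. The *Trem2* median there was 55178, below the 57507 of NPC at 6 weeks. *Inpp5d*, *Plcg2* and *Syk* were all lowest in WT at 1 week.

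In PLX5622-treated NPC mice at 9 weeks, *Trem2* was the member with the largest difference from control NPC mice, at 0.73-fold. The control libraries held 35777, 53534, 52254, 49252 and 48672 normalized counts of *Trem2*, and the PLX5622 libraries 32818, 32672, 39480, 30035 and 38867. Control replicate 1 lay inside the PLX5622 range, and the other 4 control libraries lay above it. The log2 difference was -0.46 ± 0.13 (95% interval -0.73 to -0.18, limma adjusted p = 0.111), so *Trem2* was not called, and none of the 5 genes was (1 at an unadjusted p below 0.05, 0 with edgeR and 1 with DESeq2), beside 0.947% of all genes. *Trem2* was called in DESeq2 (adjusted p = 0.0122) and without control replicate 1 (-0.56, adjusted p = 0.035). Against WT at 9 weeks, the PLX5622 libraries were all lower in *Trem2* (-0.45 ± 0.16, adjusted p = 0.0247), a call lost without WT replicate A (0.0657) or D (0.0587) or PLX5622 replicate 4 (0.062).

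*Tyrobp* was higher than in WT under PLX5622, with 31769, 37032, 34869, 32032 and 38360 normalized counts. All 5 were above the WT libraries (0.86 ± 0.22, adjusted p = 0.0024), which makes 2 of 5 genes called in that comparison, beside 32.2% of all genes. Against control NPC mice its log2 difference was -0.17 (-0.37 to 0.03). The ratio of *Tyrobp* to *Trem2* was 0.88 to 1.13 in PLX5622 libraries and 0.76 to 1.00 in control libraries. *Syk* (-0.12, -0.44 to 0.21), *Plcg2* (-0.04, -0.26 to 0.17) and *Inpp5d* (0.05, -0.21 to 0.30) did not pass the test against control, and their libraries overlapped. Control mice were compared with untreated NPC mice as well: none of the 5 genes was called, nor any other gene (0% of all genes with limma, 0 genes with edgeR and 1 with DESeq2), and none of the 5 had an unadjusted p below 0.05.

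Markers of other cells differed in the treated arm. The summed markers of monocytes and neutrophils (11 genes) were 276.0 to 1167.5 normalized counts in WT at 9 weeks, 345 to 654 in untreated NPC, 341.5 to 5850 in control and 716 to 109432 in PLX5622 libraries. PLX5622 replicate 3 held the highest value, and without it *Trem2* stood at -0.50 against control (adjusted p = 0.123) and -0.50 against WT (adjusted p = 0.0206). Summed markers of border-associated macrophages (10 genes) were 15079 to 20633 in WT, 21358 to 21694 in untreated NPC, 19012 to 29506 in control and 26240 to 48178 in PLX5622 libraries. Of these, *Cd209f* was at 0 in 22 of the 41 libraries, *Lyve1* in 18 and *Cd163* in 6. Summed lymphocyte markers were 438.5 to 785 normalized counts over the 9-week groups, with *Ncr1* at 0 in all 41 libraries. Immediate early genes, known to rise when cells are handled, summed to 11817 to 14889 in WT, 14318 to 106192 in untreated NPC, 12805 to 193578 in control and 13773 to 239575 in PLX5622 libraries. The part of these in the values of *Trem2* and *Tyrobp* was not tested.

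The genes most alike to each member were found by the root mean square (RMS) difference between centred log2 group means over the 10 groups, among 10009 other genes. Among the 5 genes most like *Trem2* were *Prelid2* (RMS 0.09), *Rrad* (0.09), *Cbr1* (0.11) and *Tmem230* (0.11). Its own partner *Tyrobp*, at an RMS of 0.46, ranked 6721. From the side of *Tyrobp*, *Trem2* ranked 3018 at the same RMS. The median RMS over the genes compared was 0.38 for *Trem2* and 0.55 for *Tyrobp*. *Tyrobp* was most like *Atp6v1f*, a subunit of the lysosomal proton pump, *Renbp* and *Blvrb* (RMS 0.10 to 0.12). *Syk* was most like *Gbf1*, *Zranb1* and *Pik3r4* (0.05 to 0.07), *Plcg2* like *Hmgxb3*, *Prkd3* and *Mon1b* (0.08 to 0.09), and *Inpp5d* like *Spata2*, *Secisbp2l* and *Mtmr3* (0.06 to 0.07). *Plcg2* and *Inpp5d* were the closest pair among the 5, at an RMS of 0.12; *Plcg2* ranked 86 among the genes most like *Inpp5d*. The 9 genes named for *Syk*, *Plcg2* and *Inpp5d* were 4012 to 6797 bases long and the 3 named for *Tyrobp* 806 to 1418 bases. Without NPC replicate C at 3 weeks, 3 of the 5 genes remained for *Trem2*, 1 of 3 for *Tyrobp*, 1 of 3 for *Syk*, 0 of 3 for *Plcg2* and 3 of 3 for *Inpp5d*.

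The genes around the core were grouped by role in 11 lists. At 9 weeks in NPC microglia, where 19.0% of all genes were called, most of the tested ligands of Trem2 and genes of the disease-associated state rose. From 1 to 6 genes were called in each list of the signalling arms and brakes, several of them near the share of all genes, and nothing is read from those counts. Of 4 ligands tested, 3 rose and none fell (median log2 difference 2.87, against 0.03 over all genes). *Lgals3*, which encodes galectin-3, averaged 219 normalized counts in WT mice and 3210 in NPC mice (3.87 ± 0.52 on the log2 scale, limma adjusted p = 2.39e-06). *Apoe*, the main brain apolipoprotein, went from 192047 to 1527317 (2.98 ± 0.44, adjusted p = 9.58e-06), and is also in the disease-associated list given last. *Clu*, another apolipoprotein, rose by 2.76 on the log2 scale, and *Apob* gave 0.15 (adjusted p = 0.919). The astrocyte gene *Gfap* rose as well, from a mean of 73.0 to 1413 normalized counts (4.12, limma adjusted p = 1.72e-05). Summed markers averaged 8794 in WT and 10984 in NPC for astrocytes, and 6885 and 12817 for oligodendrocytes. The part of RNA from other cells in the ligand values was not tested.

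Of 9 sheddase and gamma-secretase genes, which cut the receptor, 2 rose at 9 weeks, *Psen2* (0.82 on the log2 scale) and *Ncstn* (0.45), and none fell, a share near the 19.0% of all genes. Only 1 of these was called without WT replicate B or D or NPC replicate A or B. *Adam10* and *Adam17*, the proteases known to shed Trem2, gave -0.21 (adjusted p = 0.327) and -0.27 (adjusted p = 0.141). Another list held receptors that pair with Tyrobp or Hcst, other Trem genes and other ITAM adaptors. Of its 13 genes tested, *Cd300lb* and the adaptor *Hcst* (DAP10) rose (1.85 and 1.44 on the log2 scale). *Siglech* and *Clec5a* fell by 0.45 and 0.47. Without NPC replicate A, 1 rose and 0 fell.

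In the signalling arms, 1 of 7 Src family kinases fell, *Lyn* (-0.41, adjusted p = 0.00208), of the kinase family that phosphorylates the adaptor's motif. That count was 2 without NPC replicate B at 9 weeks or NPC replicate C at 3 weeks. Among 19 proximal adaptors and PI3 kinase genes, *Vav3* (2.89) and *Shc1* (0.40) rose and *Lat2* (-1.21) and *Vav1* (-0.31) fell. In the calcium and diacylglycerol arm, 0 of 18 rose and 2 fell: *Orai1*, the calcium channel (-0.71), and *Card9* (-0.72). In the Akt, Erk and beta-catenin arm, 2 of 13 rose, *Ctnnb1* (0.62) and *Mapk3* (0.45). Without NPC replicate C at 3 weeks, which enters the shared spread, the genes that fell numbered 5 in the proximal arm and 6 in the calcium arm. In the calcium arm any single 9-week library left out brought the count to 1, and in the proximal arm WT replicate B, C or D or NPC replicate A or C did so. In fits with the tilt as a covariate, 2 Src family kinases fell, and 2 genes rose and 3 fell in the calcium arm. In the Akt arm 1 gene rose without NPC replicate C at 9 weeks.

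Brakes on the pathway went both ways. Of 16 phosphatases, inhibitory receptors and related genes, *Pirb* (1.63) and *Ptpn22* (2.11) rose, and *Siglece* (-1.45), *Dok3* (-0.63), *Ubash3b* (-0.66) and *Csk* (-0.45) fell at 9 weeks. Without NPC replicate A, 1 rose and 2 fell. *Ptpn6*, the phosphatase SHP-1, and *Cd33* gave log2 differences of 0.18 and 0.08 (adjusted p = 0.364 and 0.708). Of 5 genes of the *Ms4a* cluster, whose human counterparts have been linked to soluble Trem2, *Ms4a7* rose from 39.4 to 446 normalized counts (3.76 on the log2 scale) and *Ms4a6c* from 301 to 784 (1.40). *Ms4a7* is also a marker of border-associated macrophages. Their summed markers, which include *Ms4a7* itself, were higher in NPC at 9 weeks, as given above.

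**Figure D4:**
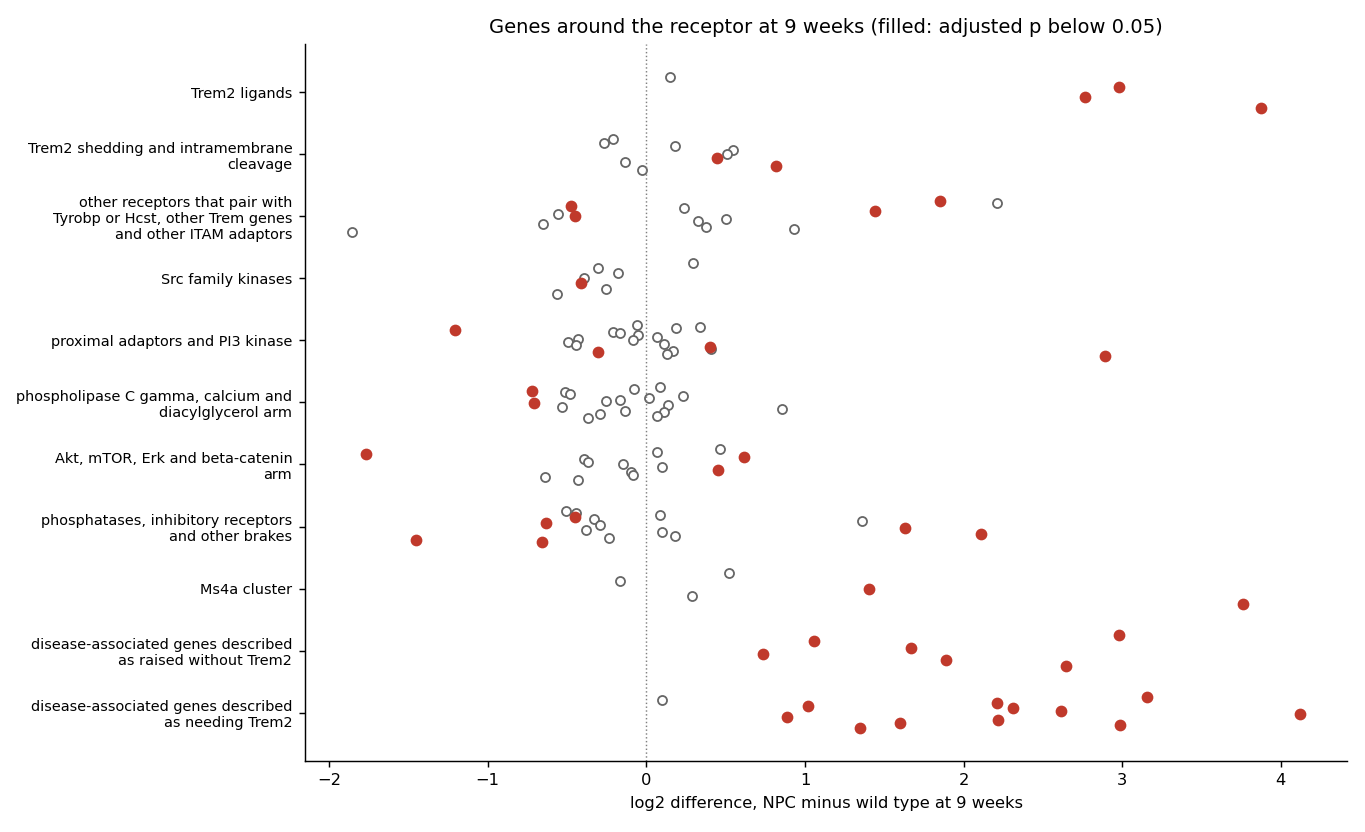
Log2 difference between NPC and WT at 9 weeks (x axis) for the tested genes of 11 lists (rows), 1 point per gene, filled where the adjusted p is below 0.05. The ligands and both sets of disease-associated genes all lie to the right of 0, and genes of the signalling arms lie on both sides of it.

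Genes of the disease-associated state, split by whether they have been described as raised without Trem2 or as needing it, rose in both sets. *Tyrobp*, which belongs to the first set, was left out as a member here. Of the 6 genes raised without Trem2, 2, 5, 6 and 6 rose at 1, 3, 6 and 9 weeks. Of the 12 described as needing Trem2, 0, 8, 11 and 11 rose. Over all genes tested, 1.45%, 26.9%, 15.3% and 19.0% were called at these ages. No gene of either set fell in the main fit, but with the tilt as a covariate 1 of the 12 fell at 3 weeks. *Ctsb*, a lysosomal protease of the first set, was already higher at 1 week (0.72 on the log2 scale, limma adjusted p = 0.0183) and at 1.67 at 9 weeks (adjusted p = 4.71e-08). *Lyz2* gave 0.00 at 1 week and 2.65 at 9 weeks. In the second set, *Cst7* gave log2 differences of -0.15, 2.39, 3.57 and 4.12 at the 4 ages, and *Axl*, a receptor for apoptotic cells, 0.02, 1.57, 2.42 and 3.16. *Ccl6* was the gene not called at 9 weeks (0.10, adjusted p = 0.85). Whether the sets differ from each other in their timing was not tested. The ligands followed the same ages, with 0, 2, 3 and 3 of 4 called. The 2 at 3 weeks became 1 without WT replicate A, C or D or NPC replicate B or D, and the 3 at 6 weeks became 1 without both NPC replicates B and C.

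Between PLX5622 and control, where 0.947% of all genes were called, calls fell in 6 of the 11 lists: 1 of 4 ligands, 2 of 12 genes described as needing Trem2, 3 of 6 of the *Ms4a* cluster, 1 of 19 in the proximal arm, 1 of 18 in the calcium arm and 1 of 16 brakes. Of the ligands, *Lgals3* rose further, from 2627 to 5462 normalized counts (1.06 ± 0.18 on the log2 scale, limma adjusted p = 0.0181), and *Apoe* gave 0.33 (adjusted p = 0.577). Of the genes described as needing Trem2, *Axl* (0.78, adjusted p = 0.00703) and *Clec7a* (0.89, adjusted p = 0.0269) rose, *Cst7* gave -0.52 (adjusted p = 0.296), and the median of the 12 was -0.13, against 0.01 over all genes. None of the 6 genes raised without Trem2 was called. In the *Ms4a* cluster, 3 of 6 rose: *Ms4a4c* (1.48), *Ms4a6b* (1.24) and *Ms4a7* (1.50). *Vav3* rose from 229 to 1058 normalized counts (2.02), the brake *Dok2* from 35.3 to 370 (3.18) and *Plcg1*, the relative of *Plcg2*, fell by 0.70. Among the 8 of these genes refitted with each library left out, *Axl* alone passed in all 10 fits (*Ms4a7* was not refitted). *Lgals3* was lost without control replicate 3, 4 or 5 or PLX5622 replicate 4. *Clec7a*, *Ms4a4c* and *Ms4a6b* were lost without control replicate 2, 3, 4 or 5 or PLX5622 replicate 1, 2 or 4, and *Dok2* without control replicate 3, 4 or 5 or PLX5622 replicate 1, 2, 3 or 4. *Vav3* and *Plcg1* were lost without any library other than control replicate 1 or PLX5622 replicate 5. The markers of monocytes and border-associated macrophages given above were higher in PLX5622 libraries, and their part in these values was not tested. *Ms4a7* is itself among the border-associated markers.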

How the data were processed

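RNA of sorted cerebellar microglia was amplified with SMART-seq v4 and sequenced as 150 bp paired reads, per the labels' protocols. Reads were checked with FastQC 0.11.4, aligned with STAR 2.5.1b to mm9 and normalized with DESeq2, per the submitters' processing notes; the annotation and the counting tool are not given in the sources used here. The deposited signal values are counts divided by a size factor for each library. Dividing by the smallest step returned whole reads for all values (within 1e-06), and depth was 23159093 to 40509603 reads per library, so counting error is small for the 5 genes. The labels count mice as replicates, and no 2 libraries of the same group agreed within sampling noise. Libraries of different groups were not compared in this way.

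Tests used limma 3.58.1 (trend, robust) on log2(value + 1), over genes whose normalized count reached 10 in 3 or more libraries, with Benjamini-Hochberg adjustment at 0.05. The 31 untreated time-course libraries were fitted together (14046 genes), PLX5622 against control over 10 libraries (12877 genes), and comparisons across arms over all 41 (14312 genes). Fold changes are on the log2(value + 1) scale. Alternatives were edgeR 4.0.16 (quasi-likelihood) and DESeq2 1.42.0 on the recovered reads, other scalings, filters and pseudocounts, array weights, the replicate block and each library left out; the length tilt as a covariate, and fits without NPC replicate C at 3 weeks (where its group was not compared) or replicates B and C at 6 weeks, were added after seeing the data. On the recovered reads edgeR called 2540 and DESeq2 3006 genes between genotypes at 9 weeks, against 2665 with limma. The code was tested on simulated data. Transcript lengths, those of the longest protein-coding transcript of a symbol in GENCODE vM21 (the longest of any kind where there was none), were matched for 22709 of 24015 symbols. Promoters are from RefSeq on GRCm38.p6, found for 4 of the 5 genes. Genes named from lists were the 2 with the smallest adjusted p in each list at 9 weeks and for PLX5622, every called gene where a list had 5 or fewer, and a few others of known role, picked after their values were seen. A few genes that this rule names are not reported here. The members and lists were chosen with earlier results of these data known. At 1 week, all 4 same-letter pairs of WT and NPC libraries deviated together (correlations 0.11 to 0.16). Whether the letters mark paired mice cannot be told from these values. The fit with the replicate block changed no call of the 5 genes at that age.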

Additional observations from a re-analysis of the deposited data

Results flagged for a closer look

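In groups of 4 or 5 libraries, a library was listed when its gap to the nearest other was large against the range of its group (Dixon's test at 95%). Of 81 groups tested, 9 were listed, and chance lists about 1 in 20. *Trem2* in control replicate 1 at 9 weeks was 35777 normalized counts, against 48672 in the next library, and the *Tyrobp* to *Trem2* ratio of that library was 1.00 (0.998), against 0.808. *Tyrobp* in WT replicate A at 3 weeks was 14314 normalized counts, against 20100. *Syk* in NPC replicate C at 3 weeks was 1421, against 6184, and its *Inpp5d* to *Syk* ratio was 10.4, against 5.43; this is the library with the extreme tilt. The *Inpp5d* to *Syk* ratio was also high in WT replicate D at 3 weeks (6.62, against 5.14) and in PLX5622 replicate 2 (7.29, against 6.58). The *Plcg2* to *Syk* ratio was high in WT replicate D at 3 weeks (2.06, against 1.49) and in WT replicate C at 9 weeks (2.05, against 1.63).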

How the results depend on the processing

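Of 1560 refits of the 5 genes, 1391 kept direction and call, 48 changed call (1 of these with its direction), and 121 turned direction without passing the test in either fit. The turned differences were up to 0.61 in size, and of all 122 turns, 26 came with the tilt as a covariate. The number of the 5 genes called, 2 for NPC against WT at 3 weeks, was 1 with only the groups compared and 1 with the tilt (chosen after seeing the data), and 1 to 4 with 1 replicate left out. At 6 weeks the 1 call became 0 with array weights, with only the groups compared and without both NPC replicates B and C, and 0 to 1 with 1 replicate left out. At 9 weeks it was 0 to 1 with 1 replicate left out. In WT from 1 to 3 weeks the 3 calls became 2 with the tilt and with the same total in every library, and 4 with array weights and with only the groups compared. In WT from 3 to 6 weeks 0 became 1 with array weights (*Trem2*). In NPC from 1 to 3 weeks, 1 became 0 with quantile normalization and with only the groups compared, 3 with array weights, 3 with the tilt, and 0 to 2 with 1 replicate left out. The interaction of 3 and 1 weeks went from 0 to 1 with array weights and DESeq2, and 0 to 1 with 1 replicate left out. PLX5622 against control went from 0 to 1 (*Trem2*) with array weights, with DESeq2 and with the replicate block (adjusted p = 0.0474), and 0 to 1 with 1 replicate left out. Control NPC against WT went from 1 to 2 with the tilt (*Plcg2*), and PLX5622 NPC against WT from 2 to 1 to 2 with 1 replicate left out. The direction of *Trem2* in WT from 1 to 3 weeks reversed with the tilt, from -0.08 to 0.41. The replicate block changed no other call of the 5 genes. The causes were not tested. Outside 1 week, same-letter pairs had correlations of -0.21 to 0.15 (-0.11 to 0.21 in the treatment arm). Some of these pairs deviated together as much as those at 1 week, and others did not. Whether these samples share more than a letter or number cannot be told from these values. Setting every library to the same total moved the median log2 difference of all genes from -0.04 to -0.17 at 3 weeks and from -0.07 to -0.28 in NPC from 1 to 3 weeks, and of the genes called at 3 weeks 1503 of 3943 were then higher, against 2006 of 3777. In WT from 1 to 3 weeks the split was 1576 of 4867, against 2203 of 4786, in NPC 1033 of 4162, against 1710 of 3509, and for PLX5622 NPC against WT 1900 of 4755, against 2376 of 4610. The differences of the 5 genes are relative to these shifts. Of 814 refits of list genes, 101 changed call. In the lists at 9 weeks, array weights raised the genes that fell to 5 in the proximal arm, 6 in the calcium arm and 7 of the brakes; for PLX5622, DESeq2 raised those that rose to 5 in the *Ms4a* cluster and 3 of the brakes, and the tilt also to 3 of the brakes. Counts over all genes moved more: at 3 weeks 3777 became 1487 with the tilt, 769 with only the groups compared and 2057 without NPC replicate C, and for PLX5622 against control 122 became 435 with array weights, 605 with DESeq2, 416 with the replicate block and 21 to 465 with 1 replicate left out.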
